A study of Mus musculus with 24 samples.

Results

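MHC and antigen presentation genes of the mouse cerebellum are described here: 10 genes that encode class I and class II molecules, the peptide loading machinery of the endoplasmic reticulum (ER) and subunits of the immunoproteasome. They were chosen as H2-K1, H2-D1, B2m, Tap1, Tap2, Tapbp, Psmb8, Psmb9, Cd74 and H2-Aa, out of 22911 gene symbols with a probe on the array. Every probe whose transcript accession belongs to 1 of them was used, which gave 14 probes. H2-K1, Tap1, Tap2 and Tapbp had 2 probes each and the other 6 genes had 1. Total RNA of cerebellum was hybridised, labelled with Cy3, to 24 single-colour Agilent arrays in 12 groups of 2.

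The mice were C57BL/6, kept free of specific pathogens and killed at postnatal day 28. In knockouts (KO) a Cre recombinase under the nestin promoter acted on floxed Derl1 or Derl2 alleles, and the controls of each line carried the floxed alleles, Derlin-1flox/flox or Derlin-2flox/flox. The Derlins sit in the ER membrane and help to move misfolded proteins out for degradation. Nestin is a gene of neural precursors, the source of neurons, astrocytes and oligodendrocytes; microglia, the macrophages of the brain, come from another lineage. Arrays labelled 4PBA came from mice injected into the abdomen with 200 mg/kg 4-phenylbutyrate, a chemical chaperone, daily from day 14 to day 28, and arrays labelled vehicle from mice given water. The Derlin-2 line and a numbered series of the Derlin-1 line had vehicle groups. In a lettered series of the Derlin-1 line the arrays without the 4PBA label name no vehicle and are called untreated. Each series lay on 1 slide of 8 arrays, with controls and KO in different columns and arrays without and with 4PBA in different rows, so slide position and group cannot be told apart. The labels do not say whether the 2 arrays of a group are separate animals, so p-values measure the spread between these arrays.

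Class I molecules are heavy chains such as H2-K1 and H2-D1 bound to the light chain B2m, and they show peptides from inside the cell to CD8 T cells. The peptides are cut by proteasomes, in which interferon-induced subunits such as Psmb8 and Psmb9 can take the place of constitutive ones. The transporter formed by Tap1 and Tap2 then carries the peptides into the ER, where tapasin, encoded by Tapbp, tethers it to empty class I molecules. Class II molecules, of which H2-Aa is an alpha chain, are made by professional antigen presenting cells and travel with the invariant chain Cd74 until a peptide replaces it. In healthy brain tissue class I levels are low, and microglia and macrophages at the borders of the brain are the main cells known to make class II.

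The promoters of the members that are treated together below are shown first, because several members share sequence or a start region. RefSeq (GRCm38.p6) gave promoter windows, from 250 bases before to 50 after the start, for 8 of the 10 genes, with 2 for H2-K1, of which the first is used; Tap2 and Cd74 are named only. The array files name another build, so no array coordinates are set beside them. The 250 bases before each start are printed in the direction of the gene: H2-K1 chr17:34000348-34000597 on the minus strand, H2-D1 chr17:35262844-35263093 on the plus strand, B2m chr2:122147437-122147686 on the plus strand and Tap1 chr17:34187306-34187555 on the plus strand. Capitals mark matches, on either strand, to the motifs listed after the sequences.
H2-K1: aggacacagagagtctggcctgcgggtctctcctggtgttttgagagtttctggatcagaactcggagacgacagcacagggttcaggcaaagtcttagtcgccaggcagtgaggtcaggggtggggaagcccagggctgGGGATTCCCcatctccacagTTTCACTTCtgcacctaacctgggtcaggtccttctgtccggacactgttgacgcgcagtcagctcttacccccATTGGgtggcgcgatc
H2-D1: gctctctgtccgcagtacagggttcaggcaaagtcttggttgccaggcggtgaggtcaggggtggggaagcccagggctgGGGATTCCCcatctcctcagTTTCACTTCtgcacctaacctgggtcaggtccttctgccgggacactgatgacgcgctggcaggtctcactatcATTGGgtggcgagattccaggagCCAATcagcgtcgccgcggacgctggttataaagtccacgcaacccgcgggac
B2m: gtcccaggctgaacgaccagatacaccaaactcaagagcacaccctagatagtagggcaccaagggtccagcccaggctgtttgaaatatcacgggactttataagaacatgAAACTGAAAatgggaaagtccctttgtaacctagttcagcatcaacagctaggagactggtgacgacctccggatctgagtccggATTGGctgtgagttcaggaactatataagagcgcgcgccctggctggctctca
Tap1: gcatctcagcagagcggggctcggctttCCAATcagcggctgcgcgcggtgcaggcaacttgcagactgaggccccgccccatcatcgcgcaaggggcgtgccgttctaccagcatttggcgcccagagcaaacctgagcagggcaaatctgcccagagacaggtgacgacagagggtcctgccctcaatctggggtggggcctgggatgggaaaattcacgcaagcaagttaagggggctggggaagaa

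The class I heavy chain promoters resembled each other. Aligned without gaps, with 1 shifted against the other, the H2-K1 and H2-D1 windows had 176 of 240 bases in common (73.3%), and their longest shared run was 47 bases. Both held GGGATTCCC, the core of the class I enhancer A, and TTTCACTTC, which on the other strand reads GAAGTGAAA and is the interferon response element of class I promoters. These were looked for after the windows had been read. GGGATTCCC occurred in 0.353% and GAAGTGAAA in 0.505% of 32851 promoter windows, and in no window of another member. B2m held the general interferon response core AAANNGAAA (10.6% of windows) as AAACTGAAA at position -138 from its start. CCAAT, a box found in many class I and class II promoters, occurred in 7 of the 8 members' windows and in 37.4% of all windows. Of these motifs the Tap1 window held CCAAT alone. A match is only a run of letters. Tap1 and Psmb9 start 226 bases apart on opposite strands, so their windows share 275 bases and the sequence printed for Tap1 is also the start region of Psmb9. Psmb9, Tap1, Psmb8 and Tap2 are neighbours among the protein-coding genes of chromosome 17, which also carries H2-K1, H2-D1, Tapbp and H2-Aa; B2m lies on chromosome 2 and Cd74 on 18.

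A level is the log2 intensity of a probe minus the 75th percentile of its array, so that 0 is the intensity of that percentile, and levels of different probes are not compared. The scanner software called 57.7% to 68.4% of an array's spots well above background and none saturated, and 38115 probes of 16935 genes entered the fit because they were well above background on both arrays of at least 1 group. Of the 14 members' probes 13 did so, and 11 were well above background on all 24 arrays. The H2-Aa probe was well above background on 18 arrays and the second Tap1 probe on 7. The second Tap2 probe (A_51_P240654) was below that limit on all 24 arrays and is left out below. Both H2-K1 probes name 1 transcript, and class I heavy chains are so alike that a probe may also read related genes, which makes the gene behind each heavy chain signal uncertain. Precision is limited by the 2 arrays per group: over all probes, the standard error (SE) of a log2 change had a median of 0.14 in the Derlin-1 line, where both series are averaged, and 0.20 in the Derlin-2 line.

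A pair of arrays went against their labels. On the array labelled as Derlin-1 KO with 4PBA, letter b (the doubted Derlin-1 array below), Derl3 was at -1.73 and the chemokine gene Cxcl10 at -3.90, where its controls had -1.97 and -1.64 for Derl3 and -3.93 and -4.53 for Cxcl10, and the other KO array of that group had 0.71 and -0.37. On the array labelled as Derlin-2 KO with vehicle, number 1 (the doubted Derlin-2 array below), Derl2 was at 2.30, against 1.96 to 2.14 on the controls of its slide and 0.73 to 1.08 on the other Derlin-2 KO arrays. The Derl1 probe did not separate the Derlin-1 groups: levels without 4PBA were 1.40 to 1.78 on control and 0.68 to 1.48 on KO arrays. The tests of a comparison that holds either array, and the correlations over all arrays, are followed by their values without it.

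In Derlin-1 KO cerebellum without 4PBA, genes of every class of the antigen presentation machinery rose. B2m was 1.47-fold, H2-K1 1.44-fold, Tap2 1.44-fold, Tap1 2.03-fold, Cd74 1.77-fold and Psmb8 2.19-fold higher than in controls, averaged over the numbered and lettered series (4 KO and 4 control arrays). These 6 genes were called, that is, had an adjusted p under 0.05 in limma's fit to all probes, adjusted over 38110 probes. H2-D1, Tapbp, Psmb9 and H2-Aa had higher means and were not called.

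Of the class I molecules, B2m (A_51_P129012) had levels of 3.72 and 3.72 on the numbered vehicle controls and 4.50 and 4.36 on the numbered KO arrays. On the lettered untreated arrays it had 3.50 and 3.18 in controls and 3.77 and 3.70 in KO. Within each slide both KO arrays were thus above both controls, although the lettered slide lay lower throughout. The log2 change was 0.55 ± 0.14 (SE), with an adjusted p of 0.0386. The heavy chain H2-K1 (A_51_P198434) had 2.65 and 2.50 in numbered controls, 3.16 and 3.20 in numbered KO, 2.68 and 2.42 in lettered controls and 3.10 and 2.89 in lettered KO. KO arrays stood above controls on both slides, and the change was 0.52 ± 0.14 (SE, adjusted p 0.0439). The second H2-K1 probe (A_55_P2049647) gave nearly the same change, 0.51 ± 0.13 (SE, adjusted p 0.039). The heavy chain H2-D1 (A_65_P19395) had 2.55 and 2.50 in numbered controls against 2.91 and 2.99 in KO, and 3.11 and 2.94 in lettered controls against 3.37 and 3.11 in KO. On the lettered slide KO array b lay level with a control, and its change of 0.32 ± 0.10 (SE) had an adjusted p of 0.0868.

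Among the loading genes, Tap1, a subunit of the peptide transporter, had levels on its brighter probe (A_66_P125929) of -2.71 and -2.51 in numbered controls and -1.68 and -1.61 in numbered KO. In the lettered series controls had -2.27 and -2.52, KO array a -0.75 and KO array b -1.90. The groups did not overlap on either slide, and KO array a was the highest of all 24 arrays. The change was 1.02 ± 0.26 (SE, adjusted p 0.0414). The dim second Tap1 probe (A_51_P100327) was well above background on both arrays of a group only in the KO groups without 4PBA, so it passed the filter only where it was high; no test or fold from the fit is given for it, and the counts below leave it out. On the numbered slide, where neither control was well above background, its KO mean was at least 1.43-fold higher, against the array's lowest signal above background. Tap2 (A_55_P2017645), the partner of Tap1, had 0.82 and 0.78 in numbered controls, 1.20 and 1.37 in KO, 1.10 and 0.92 in lettered controls and 1.86 and 1.30 in KO. All KO arrays were above the controls of both slides, and the change was 0.52 ± 0.13 (SE, adjusted p 0.0387). Tapasin, Tapbp (A_51_P304500), had 1.60 and 1.85 in numbered controls against 2.12 and 2.18 in KO, and 2.31 and 2.04 against 2.80 and 2.30 in the lettered series. Lettered KO array b lay just under 1 control, and the change of 0.40 ± 0.11 (SE) had an adjusted p of 0.0611. The second Tapbp probe (A_52_P684830), which names another transcript of the gene, gave a change of 0.20 ± 0.12 (SE, adjusted p 0.39).

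The immunoproteasome subunits differed in how far their arrays were apart. Psmb8 (A_51_P345367) had -2.74 and -2.14 in numbered controls, -1.36 and -1.42 in KO, -1.67 and -2.26 in lettered controls and -0.37 and -1.14 in KO. Its KO arrays were above all controls of both slides, and the change was 1.13 ± 0.26 (SE, adjusted p 0.0249). Psmb9 (A_51_P369803) had -2.11 and -1.84 in numbered controls against -1.25 and -1.18 in KO, and -1.67 and -2.17 in lettered controls against -1.05 and -1.76 in KO. The lettered groups overlapped, and the change of 0.64 ± 0.23 (SE) had an adjusted p of 0.134.

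Of the class II genes, Cd74 (A_51_P284608) had -2.94 and -2.44 in numbered controls, -1.72 and -1.62 in KO, -1.95 and -1.99 in lettered controls and -1.14 and -1.53 in KO. It had the smallest adjusted p of the members, 0.0114, with a change of 0.82 ± 0.16 (SE). Its controls differed between slides by more than the KO effect of the lettered slide: the Derlin-2 vehicle controls, at -1.77 and -1.61, were at the level of the numbered KO arrays. H2-Aa (A_52_P343306) had -4.31 and -5.95 in numbered controls against -4.74 and -4.06 in KO, and -4.82 and -5.22 in lettered controls against -4.91 and -4.55 in KO. These dim groups overlapped on both slides, and the change of 0.51 ± 0.33 (SE) had an adjusted p of 0.445.

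**Figure D1:**
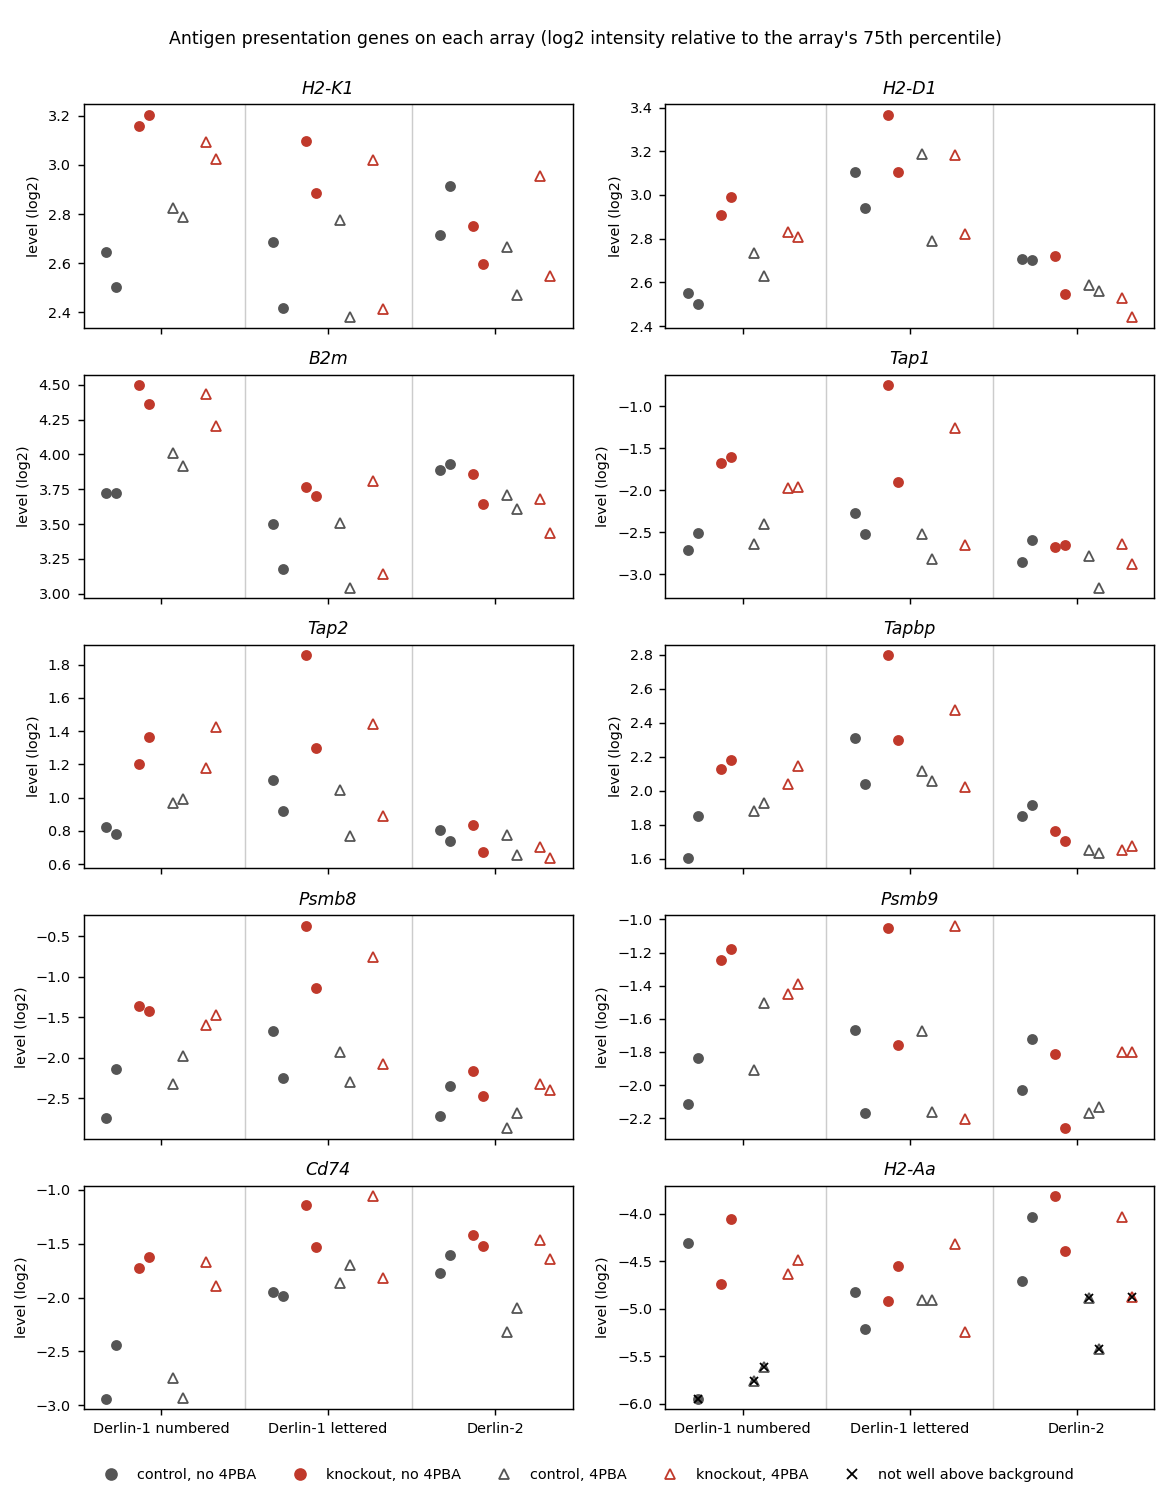
Level of each gene on each of the 24 arrays (brightest probe; log2 intensity relative to the array's 75th percentile; each point is 1 array, crosses mark arrays not well above background). KO arrays without 4PBA stand above the controls of their slide for H2-K1, B2m, Tap1, Tap2, Psmb8 and Cd74 in both Derlin-1 series, while on the Derlin-2 slide B2m lies between 3.44 and 3.93 on all 8 arrays.

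Counted together, 12 of 12 members' probes were higher in Derlin-1 KO arrays without 4PBA and 7 were called, all higher. Of all probes 4.94% were called and 2.40% were called and higher. The doubted arrays enter this comparison only through the spread that all groups share, and without both 8 of the 12 were called, beside 5.86% of all probes. Higher probes made up 48.6% of all called probes, or 59.7% where the percentile was taken over probes above background on all arrays. The median change was 0.52 over the 12 probes and 0.01 over all probes. For 7 of the 12 probes every KO array was above every control array on both slides, against 9.30% of all probes. The mean changes were in the same direction in both series, with 12 of 12 higher in each and a median of 0.67 in the numbered series and of 0.42 in the lettered one. The difference between the series was tested and called for none of the 12 probes (0.0131% of all probes were called), and none had an unadjusted p under 0.05 in limma's test.

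Each member's probe had a higher mean in KO in every other setting that tested it, while calls were lost, over all probes as among the members. Leaving out untreated KO a left 0 of the 12 probes called and 1.06% of all probes. The count was 1 without vehicle control 1 (2.95% of all probes), vehicle KO 1 (1.99%), vehicle KO 2 (1.64%) or untreated control b (3.52%). It was 2 without vehicle control 2 (1.95%) or untreated control a (1.67%), and 9 without untreated KO b (8.51%). Fitting the compared groups alone left 0 (1.16% of all probes), and dropping the filter on dim probes left 2 (1.84%). The numbered series alone left 0 (0.0236%) and the lettered series alone 0 (0.656%). Where limma called 0 of the 12, the number with an unadjusted p under 0.05 was 9 without untreated KO a, 10 for the compared groups alone, 10 for the numbered series and 6 for the lettered series. Cd74 was called in 7 of the 8 fits with an array left out and Psmb8 in 3.

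**Figure D2:**
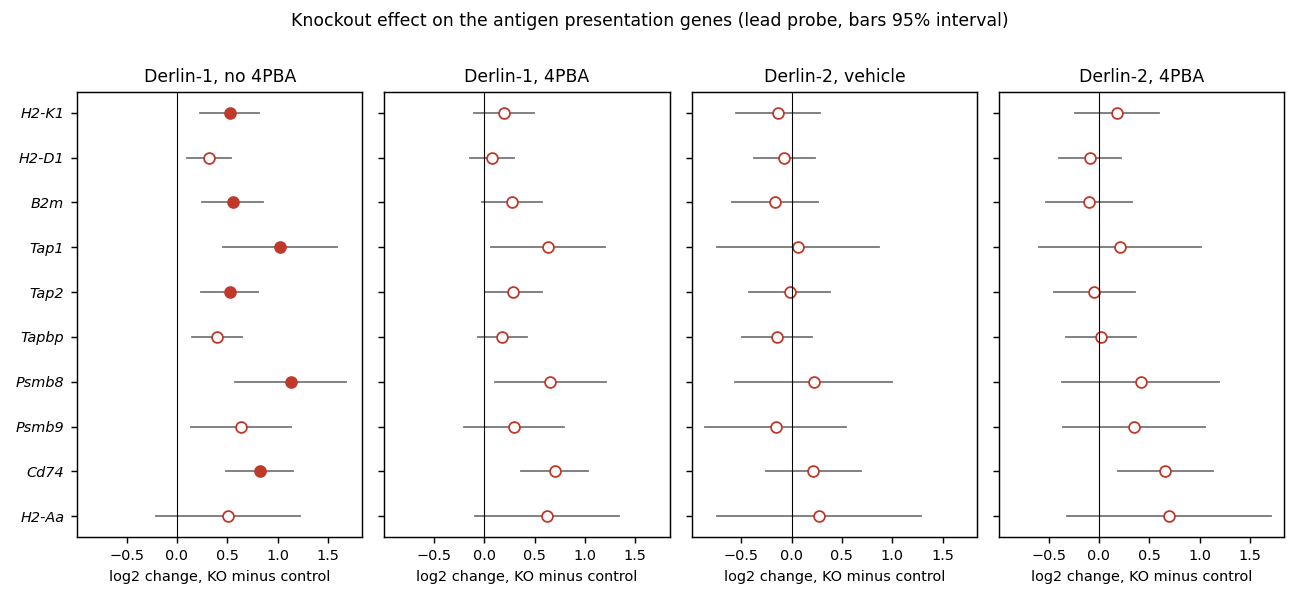
Log2 change, KO minus control, of each gene's brightest probe in the 4 KO comparisons, with 95% intervals from limma; filled points are called. The Derlin-1 changes without 4PBA lie between 0.32 and 1.13, those under 4PBA between 0.08 and 0.70, and the Derlin-2 changes lie on both sides of 0.

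Markers of microglia moved with these genes in the Derlin-1 line. All 10 microglia markers were well above background on all 24 arrays, and 8 of them were called higher in KO arrays without 4PBA, with a median change of 1.23 over the 10. Trem2 changed by 1.77 ± 0.28 (SE) and Aif1 by 1.49 ± 0.23 (SE). P2ry12 (0.23 ± 0.20, SE, adjusted p 0.581) and Tmem119 (0.28 ± 0.11, SE, adjusted p 0.142) were not called. With 1 probe per gene, 3.38% of all genes were called and higher. The summed intensity of the 10 markers, in units of the array's 75th percentile, was 24.6 to 26.5 in numbered controls and 50.7 to 50.9 in numbered KO, and 22.9 to 29.9 in lettered controls and 47.6 to 54.7 in lettered KO. Of markers of border and blood macrophages or monocytes, 3 of 6 tested (Cd163, Lyve1 and F13a1) were called higher; the sum was 13.4 to 15.8 in numbered controls and 15.4 to 16.3 in KO, and 15.5 to 19.8 in lettered controls and 21.3 to 24.1 in KO. Ccr2, which marks blood monocytes, was well above background on none of the 24 arrays. The granule neuron sum was lower in KO, 436 to 442 against 567 to 600 in the numbered and 320 to 333 against 410 to 434 in the lettered series, and 2 of its 7 markers (Gabra6 and Neurod1) were called lower, or 4 without both doubted arrays, which added Grin2c and Zic1. Itgax, a marker of dendritic cells, was well above background on no control array without 4PBA and on all 4 KO arrays. It entered the fit only where it was high, so no test is given for it; its KO mean was at least 10.6-fold higher in the numbered and at least 9.26-fold higher in the lettered series. None of the 3 other dendritic markers tested was called: Flt3 changed by -0.07 ± 0.08 (SE) and Zbtb46 by 0.10 ± 0.12 (SE), and Xcr1 was well above background on 5 of the 24 arrays. The sum of the 6 dendritic markers was 3.04 to 3.20 in numbered controls and 2.91 to 3.48 in KO, and 3.33 to 3.48 in lettered controls and 3.39 to 3.70 in KO, so it overlapped in both series. Of 6 markers of Bergmann glia and astrocytes 1 was called, Gfap, which rose by 1.24 ± 0.18 (SE, adjusted p 0.00507). Of 5 markers of meninges and fibroblasts none was called, or 1 without both doubted arrays, Col1a2 (0.33 ± 0.06, SE). Their sum was 25.3 to 27.1 in numbered controls and 33.6 to 34.9 in KO, and overlapped in the lettered series, with 28.6 to 31.0 in controls and 28.5 to 30.5 in KO. The part of these shifts in the members' changes was not tested. In bulk tissue fewer cells of a type and less RNA per cell cannot be told apart.

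Lymphocyte markers were mostly dim. Of 8 T and NK cell markers Cd8a, Ncr1 and Gzmb were well above background on no array, Cd3g was on 1, and 1 of the 4 tested, Lck, was called higher, by 0.89 ± 0.21 (SE). Of 5 B cell markers Ms4a1 was well above background on none of the arrays, and none of the 3 tested was called; the B cell sum was 0.197 to 0.269 in numbered controls and 0.211 to 0.236 in KO, and 0.174 to 0.188 in lettered controls and 0.205 to 0.213 in KO. The T and NK cell sum, most of which came from the Cd4 probe, was 4.95 to 15.3 in numbered controls and 5.73 to 8.54 in KO, and 2.90 to 3.84 in lettered controls and 2.92 to 3.17 in KO.

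**Figure D3:**
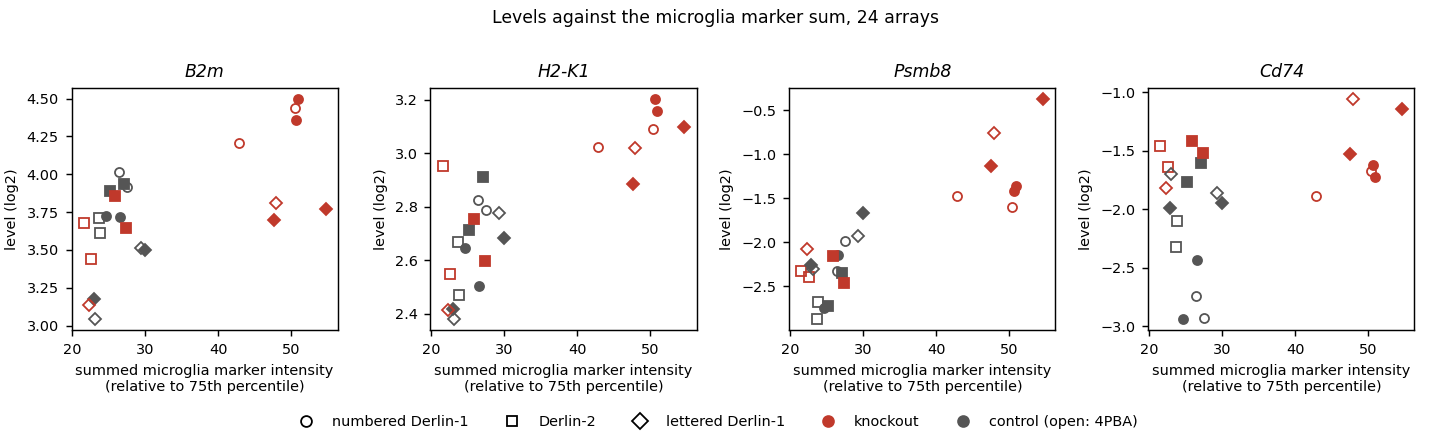
Levels of B2m, H2-K1, Psmb8 and Cd74 (log2) against the summed intensity of 10 microglia markers on the 24 arrays; circles are numbered Derlin-1, diamonds lettered Derlin-1 and squares Derlin-2 arrays, red is KO and open symbols are 4PBA. Derlin-1 KO arrays lie at marker sums of 42.9 to 54.7 except the doubted Derlin-1 array, at 22.3, which lies among the controls for all 4 genes; Cd74 levels of Derlin-2 arrays are spread at marker sums of 21.5 to 27.3.

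Under 4PBA the same genes had higher means in Derlin-1 KO arrays, and none was called. All 12 probes were higher, with a median change of 0.28 against -0.01 over all probes; 4 had an unadjusted p under 0.05 in limma's test, and 0.0604% of all probes were called. Cd74 came closest, with 0.70 ± 0.16 (SE, adjusted p 0.161). Psmb8 changed by 0.66 ± 0.26 (SE, adjusted p 0.411), Tap1 by 0.64 ± 0.26 (SE, adjusted p 0.447), B2m by 0.28 ± 0.14 (SE, adjusted p 0.557) and H2-K1 by 0.20 ± 0.14 (SE, adjusted p 0.719).

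A single lettered KO array lay with its controls. Cd74 had -2.75 and -2.93 in numbered 4PBA controls against -1.67 and -1.89 in KO, and -1.86 and -1.70 in lettered controls against -1.06 and -1.82 in KO. Psmb8 had -2.33 and -1.98 against -1.60 and -1.48 in the numbered and -1.93 and -2.30 against -0.76 and -2.08 in the lettered series. B2m had 4.01 and 3.92 against 4.44 and 4.20, and 3.51 and 3.04 against 3.81 and 3.14. In each lettered KO pair the second value is that of the doubted Derlin-1 array, which stood within or next to the range of its controls. In the numbered series both KO arrays were above both controls for each of the 12 probes except the second Tapbp probe. The share of all probes so separated was not counted for this slide alone. On the Derlin-2 slide, also with 2 arrays per group, KO arrays were above controls for 23.6% of all probes with vehicle and 16.5% under 4PBA. In the numbered series H2-Aa was not well above background on either 4PBA control and was at least 1.27-fold higher in KO.

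Without the doubted Derlin-1 array, 3 of the 12 probes were called under 4PBA, 10 had an unadjusted p under 0.05 in limma's test and the median change was 0.44, while 2.70% of all probes were called. Cd74 then changed by 0.89 ± 0.14 (SE, adjusted p 0.00356), Psmb8 by 0.99 ± 0.22 (SE, adjusted p 0.0307) and Tap1 by 0.98 ± 0.22 (SE, adjusted p 0.0311). B2m changed by 0.44 ± 0.12 (SE, adjusted p 0.0853) and H2-K1 by 0.35 ± 0.13 (SE, adjusted p 0.219), and neither was called. The microglia sum of that array was 22.3, where the other KO arrays with 4PBA had 42.9 to 50.5 and the lettered 4PBA controls 23.1 to 29.3.

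For the effect of 4PBA itself none of the members was called in either genotype of the Derlin-1 line. In Derlin-1 KO all 12 probes were lower with 4PBA, by a median of -0.20 against -0.01 over all probes, and none was called by limma or had an unadjusted p under 0.05 (0.0525% of all probes were called). Tap1 changed by -0.48 ± 0.26 (SE, adjusted p 0.963), Psmb8 by -0.41 ± 0.26 (SE, adjusted p 0.984) and Cd74 by -0.11 ± 0.16 (SE). Without the doubted Derlin-1 array the median was -0.06, 9 probes were lower and 3 higher, Tap1 changed by -0.13, Psmb8 by -0.08 and Cd74 by 0.09; none was called by limma (0.0525% of all probes) or had an unadjusted p under 0.05. In Derlin-1 controls 9 probes were higher and 3 lower with 4PBA, with a median of 0.04, and none was called (0.0341% of all probes) or had an unadjusted p under 0.05.

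The KO effect under 4PBA and without it was compared directly as a difference of differences. By limma none of the 12 probes was called (0.0315% of all probes were), and none had an unadjusted p under 0.05. The 95% intervals were wide: the difference was -0.48 (-1.26 to 0.30) for Psmb8, -0.28 (-0.70 to 0.15) for B2m, -0.33 (-0.75 to 0.09) for H2-K1, -0.38 (-1.19 to 0.42) for Tap1 and -0.12 (-0.59 to 0.35) for Cd74. Without the doubted Derlin-1 array the difference was -0.15 for Psmb8, -0.11 for B2m, -0.18 for H2-K1, -0.04 for Tap1 and 0.07 for Cd74, and the median over the 12 probes was -0.11 against -0.24 with it. By limma none was called without it (0.021% of all probes) or had an unadjusted p under 0.05. The effects under and without 4PBA rest on separate arrays. Psmb8, for example, changed by 1.13 without and by 0.66 under 4PBA.

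In the Derlin-2 line none of the antigen presentation genes was called. With vehicle 4 of the 12 probes were higher and 8 lower in KO arrays, with a median of -0.10; 0.121% of all probes were called, and 1 member's probe had an unadjusted p under 0.05. B2m had 3.89 and 3.93 in controls and 3.86 and 3.64 in KO, a change of -0.16 ± 0.20 (SE). Psmb8 had -2.72 and -2.35 in controls and -2.16 and -2.47 in KO, and its change was 0.22 ± 0.36 (SE), with overlapping arrays. The change was -0.14 ± 0.19 (SE) for H2-K1 and 0.06 ± 0.37 (SE) for Tap1. The probe with an unadjusted p under 0.05 was the second Tapbp probe, with -0.45 ± 0.17 (SE, adjusted p 0.641). The first KO value of each pair is from the doubted Derlin-2 array. Without it 3 probes were higher and 9 lower, with a median of -0.17, and by limma none was called (0.404% of all probes) or had an unadjusted p under 0.05. B2m then changed by -0.27, H2-K1 by -0.22, Tap1 by 0.07 and Psmb8 by 0.07.

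Under 4PBA 8 of the 12 probes were higher and 4 lower in Derlin-2 KO arrays, with a median of 0.17, and none was called (0.165% of all probes). Cd74 had the only unadjusted p under 0.05: controls had -2.32 and -2.10 and KO arrays -1.46 and -1.64, so the arrays did not overlap, and the change of 0.66 ± 0.22 (SE) had an adjusted p of 0.654. The vehicle controls of this line, at -1.77 and -1.61, lay nearer to those KO arrays than the 4PBA controls did, and in controls Cd74 changed with 4PBA by -0.52 ± 0.22 (SE, adjusted p 0.656). Over all members 4PBA gave 12 lower and 0 higher probes in Derlin-2 controls, with none called (0.178% of all probes) and 1 unadjusted p under 0.05. In Derlin-2 KO arrays it gave 8 lower and 4 higher, with none called (0.144% of all probes) and no unadjusted p under 0.05; the median was -0.07, and without the doubted Derlin-2 array 7 were lower and 5 higher, with a median of -0.01, and by limma none was called (0.365% of all probes) or had an unadjusted p under 0.05. The difference of the Derlin-2 KO effect under 4PBA minus vehicle was called for none of the 12 probes (0.0893% of all probes), and none had an unadjusted p under 0.05. It was above 0 for 10 and below 0 for 2, with a median of 0.26; without the doubted Derlin-2 array it was above 0 for 12, with a median of 0.37, and by limma none was called (0.111% of all probes) or had an unadjusted p under 0.05. The microglia sum was 21.5 to 27.3 over all 8 arrays of this slide.

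The KO effects of both lines without 4PBA were set against each other, and they share no arrays. The Derlin-1 effect was the larger for 12 of 12 probes, with a median difference of 0.66 against -0.01 over all probes. None was called (0.0682% of all probes were), and 8 had an unadjusted p under 0.05; the smallest adjusted p was 0.293. The difference was 0.71 (95% interval 0.19 to 1.24, adjusted p 0.311) for B2m, 0.66 (0.15 to 1.17) for H2-K1, 0.91 (-0.04 to 1.87) for Psmb8, 0.96 (-0.03 to 1.94) for Tap1 and 0.61 (0.03 to 1.18) for Cd74. Without the doubted Derlin-2 array it was 0.82 for B2m, 0.74 for H2-K1, 1.07 for Psmb8, 0.95 for Tap1 and 0.66 for Cd74. The median was then 0.70, the smallest adjusted p in limma's fit was 0.20, none was called (0.336% of all probes) and 8 had an unadjusted p under 0.05. The call of these genes in the Derlin-1 line and its absence in the Derlin-2 line is therefore not a called difference between the lines.

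Other genes of the pathways were counted in the Derlin-1 KO comparison without 4PBA, from lists of related genes and with 1 probe per gene. By the same choice of probe 6.60% of 16935 genes were called and 3.38% were called and higher, and without both doubted arrays 7.92% and 4.22%. Of 14 other class I heavy chains 12 were higher and 1 was called, a share near that of all genes: H2-K2, with 0.44 ± 0.12 (SE, adjusted p 0.045). Without both doubted arrays 3 were called, which added H2-M3 (0.61 ± 0.13, SE) and H2-T23 (0.47 ± 0.12, SE). Of 13 genes of peptide supply and loading 4 were called higher, and all 4 are general ER chaperones or folding enzymes: Hspa5 (1.23 ± 0.19, SE), Calr (0.75 ± 0.14, SE), Pdia3 (0.57 ± 0.12, SE) and Canx (0.42 ± 0.11, SE). Calr and Pdia3 are also parts of the peptide loading complex. Without both doubted arrays 6 were called, which added the peptide-trimming aminopeptidase Erap1 (0.53 ± 0.13, SE) and the tapasin relative Tapbpl (0.37 ± 0.09, SE). Psmb10, the third immunoproteasome subunit, named here after its value was seen, changed by 0.18 ± 0.12 (SE, adjusted p 0.442). None of the 3 constitutive catalytic subunits was called, and no constitutive subunit had a higher mean: Psmb5 changed by -0.26 ± 0.11 (SE, adjusted p 0.195), Psmb6 by -0.09 and Psmb7 by -0.08.

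Of 11 other genes of the class II pathway 4 were called higher and 1 lower. Ctss, the cathepsin that degrades the invariant chain, rose by 1.41 ± 0.23 (SE, adjusted p 0.00718), the class II beta chain H2-Ab1 by 0.54 ± 0.13 (SE) and the thiol reductase Ifi30 by 0.39 ± 0.10 (SE). H2-Oa, the alpha chain of the H2-O molecule, was called and was at least 1.67-fold higher in the numbered series, where its controls were not well above background. Its beta chain H2-Ob fell, by 0.86 on the log2 scale (SE 0.17, adjusted p 0.0161).

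Among 15 regulators of these genes 3 were called, all higher. Nlrc5, the transactivator of class I genes, rose by 2.01 ± 0.40 (SE, adjusted p 0.0141): levels were -4.34 and -5.63 in numbered controls, -3.16 and -3.23 in KO, -5.13 and -5.71 in lettered controls and -2.52 and -3.84 in KO, so that no KO array met a control. On 1 control of each slide its probe was not well above background. Irf8, an interferon-responsive factor of myeloid cells, rose by 1.22 ± 0.25 (SE). Ciita, the transactivator of class II genes, changed by -0.28 ± 0.16 (SE, adjusted p 0.372) and Irf1 by 0.41 ± 0.19 (SE, adjusted p 0.243), and neither was called.

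Of 14 genes of the interferon gamma response 12 were higher and 4 were called: the chemokine Cxcl10 (3.50 ± 0.65, SE), the GTPases Igtp (1.40 ± 0.30, SE) and Irgm1 (1.19 ± 0.25, SE), and the inhibitory ligand Cd274 (1.02 ± 0.24, SE). Without both doubted arrays 8 were called, all higher, which added the GTPases Iigp1 (1.17 ± 0.28, SE), Gbp3 (0.81 ± 0.18, SE), Irgm2 (0.78 ± 0.17, SE) and Gbp2 (0.69 ± 0.15, SE). The interferon genes themselves were mostly dim: Ifng, Ifnb1 and Ifna4 did not enter the fit, and neither of the other 2, Ifna2 and Ifnl3, was called. Of 5 tested receptors of antigen presentation 2 were called, Pirb with 1.36 ± 0.35 (SE) and Lilrb4a, at least 4.68-fold higher in the numbered series; both are inhibitory receptors of myeloid cells. In the other 11 comparisons limma called 0 of these genes in 843 tests, of which 83 had an unadjusted p under 0.05.

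That count rested on the doubted arrays. Without both of them 17 of 839 tests were called and 98 had an unadjusted p under 0.05. In Derlin-1 KO under 4PBA 14 of the 77 genes were then called, all higher, while 3.44% of all genes were called and 2.08% were called and higher. They included Hspa5 (1.01 ± 0.12, SE), Ctss (1.20 ± 0.13, SE), the class II beta chain H2-Eb1 (0.65 ± 0.14, SE), Irf8 (1.04 ± 0.15, SE), Cxcl10 (3.55 ± 0.51, SE) and Igtp (1.24 ± 0.24, SE). The doubted Derlin-1 array was singled out by its low Cxcl10 and Derl3. Calls gained by leaving it out are therefore no independent test, least of all that of Cxcl10. The difference of the KO effect without 4PBA, Derlin-1 minus Derlin-2, was called for Ctss, at 1.40, and for H2-Oa, at 2.16. The Derlin-2 vehicle KO group held a single array in this fit, so no p-value is given. The Derlin-1 change of H2-Oa was 1.06, so its difference also holds a lower mean on that array than on the Derlin-2 controls. Its probe was well above background on only 9 arrays over all groups, so the H2-Oa call between the lines is uncertain. H2-Oa was also called lower in Derlin-2 KO under 4PBA, where no array of either group was well above background, so no change is given.

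**Figure D4:**
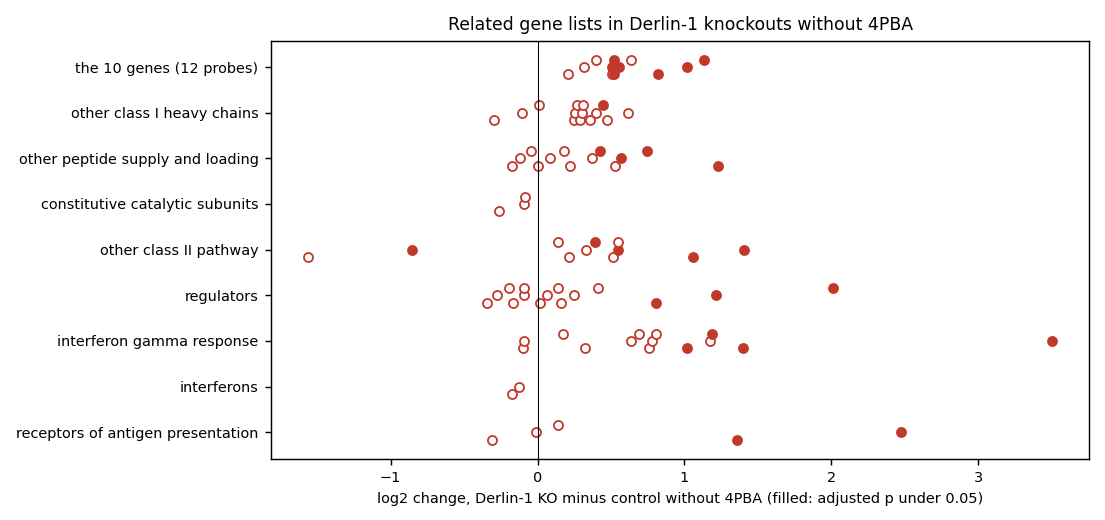
Log2 change in Derlin-1 KO minus control arrays without 4PBA for 12 probes of the 10 genes and for each gene of 8 related lists (1 point per probe, at its fitted change, shifted up and down only for legibility; filled points are called). The 10 genes lie between 0.20 and 1.13, all to the right of 0, while the constitutive catalytic subunits lie between -0.26 and -0.08.

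The members varied among themselves in 2 ways across the 24 arrays. Tap1, Tap2, Tapbp and Psmb8 ran closely together, with Pearson correlations between their brightest probes from 0.87 (Tap1 and Tapbp) to 0.95 (Tap1 and Psmb8). Of the class I genes, B2m had a correlation of 0.83 with the heavy chain H2-K1 and of 0.05 with the heavy chain H2-D1, which had 0.93 with Tapbp. The slides ranked differently for B2m and H2-D1. Among controls, B2m was at 3.04 to 3.51 on the lettered slide and 3.72 to 4.01 on the numbered slide, while H2-D1 was at 2.79 to 3.19 and 2.50 to 2.74. Cd74 had 0.01 with B2m and 0.58 with H2-Aa. Over the 22 arrays without the doubted ones the correlation was 0.88 for Tap1 and Tapbp, 0.96 for Tap1 and Psmb8 and 0.93 for H2-D1 and Tapbp. It was 0.82 for B2m and H2-K1, 0.07 for B2m and H2-D1, 0.01 for Cd74 and B2m and 0.57 for Cd74 and H2-Aa. These correlations are descriptions over arrays that share slides, groups and scaling.

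By the same measure, over 14331 genes well above background on all arrays, the genes most like Psmb8 were Dtx3l (0.96), Cyba (0.96) and Lgals3bp (0.95). All 3 were called higher in Derlin-1 KO arrays without 4PBA, by 0.69, 0.87 and 1.49. The genes most like B2m were Sfxn1 (0.95), Raver2 (0.94) and Fkbp7 (0.93), and none of these was called. Those most like Cd74 were Slc39a9 (0.78), Smyd5 (0.77) and the class II chain H2-Ab1 (0.77). Without the doubted arrays the same 3 genes came first for Psmb8 and for B2m, while those most like Cd74 were Smyd5, Aebp1 and Rasal1, each at 0.79, and H2-Ab1 came ninth.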

How the data were processed

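Agilent Feature Extraction (10.7.1.1, per the file headers) gave the deposited processed intensity of each spot, background-subtracted per the authors' files; the deposited series table holds the same intensity values. Other steps by the authors are not given in the sources used here. Control spots were dropped, outlier-flagged spots (52 to 637 per array) were set missing, and spots of a probe were averaged on the log2 scale into 56605 probes. The 75th percentile, 601 to 801 intensity units, was subtracted on each array. Gene names came from RefSeq by transcript accession alone (32994 probes matched, 23611 did not).

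All 24 arrays were fitted with a mean per group in limma 3.58.1 (R 4.3.3), leaving 12 residual degrees of freedom, to which limma's prior added 1.94. Tests were two-sided, with Benjamini-Hochberg adjustment over all probes and calls at 0.05. Derlin-1 comparisons average both series. The fit was checked on simulated data for the mean size of planted changes only. The noise there was independent, without slide effects, so this does not test the calls made here. Counts cover 12 of the members' 14 probes; leaving out the second Tap1 probe was decided after its values were seen. All probes of the 10 members are named, a gene with several by the brightest first; of related lists, up to 5 called genes with the largest change, or genes in list order where none is called, besides Nlrc5, Ciita and Irf1; markers named by a call, doubted arrays' genes and list genes called only without those arrays were chosen after their values were seen. The members and lists were chosen with earlier results of these data known. Alternatives covered the scaling, background correction (normexp with an offset of 50), filters, series, replicate block and single arrays. The normexp setting used median spot signals, since the files used here hold no mean signal column. A called regulator and a promoter motif are not reported here.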

Additional observations from a re-analysis of the deposited data

How the results depend on the processing

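In Derlin-1 KO arrays without 4PBA, every member's probe tested had a higher mean in every setting. Of 12 probes, 7 in the reported fit, the number called was 8 under quantile normalization (4.62% of all probes), 9 with the percentile over probes above background on all arrays (5.57%), 8 under normexp (5.36%), 7 from the authors' table (4.67%) and 10 with the replicate block (5.71%). Whether replicate numbers pair the arrays was unclear: correlations of deviations between groups of a slide ran from -0.30 to 0.76. They were over 0.1 for 3 of 6 pairs of groups on the numbered, 2 of 6 on the Derlin-2 and 4 of 6 on the lettered slide. The number called was 2 without a filter (1043 of all probes), 0 in the fit of the compared groups (442), 0 in the numbered series alone (9) and 0 in the lettered series alone (250). Without single arrays it ranged from 0 to 9, and over all probes from 404 to 3243 against 1881. Under 4PBA it ranged from 0 to 3 without single arrays and was 3 (2.41% of all probes) without both arrays that go against their labels, a setting chosen after the data were seen.

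Uncalled changes near 0 turned sign. Without single arrays H2-D1 under 4PBA in the Derlin-1 line ranged from -0.023 to 0.176. In the Derlin-2 line B2m ranged from -0.222 to 0.0212 and H2-K1 from -0.0217 to 0.384 under 4PBA, and Tap1 from -0.0667 to 0.193 with vehicle. Cd74 ranged from -0.296 to 0.0852 for 4PBA in Derlin-1 KO, and was 0.0852 without both doubted arrays. Its difference of KO effects under and without 4PBA ranged from -0.313 to 0.068, and was 0.0412 in the numbered series alone and 0.068 without both arrays. The cause was not tested.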
